A study of Homo sapiens with 19 samples.

Results

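Ectopic HMGN5 was supplied to STAT3-depleted MDA-MB-231 cells, a widely used triple-negative breast cancer line, and poly(A) RNA was sequenced. The comparison took the libraries titled siSTAT3+HMGN5 (3 replicates) and siSTAT3+Vector (3 replicates), which make 6 of the 17 RNA-seq libraries of the series. All 6 libraries came from cells transfected with 30 nM siRNA against STAT3. Those called siSTAT3_HMGN5 here also received HMGN5 from a lentiviral vector, and those called siSTAT3_Vec received the control vector. The 3 libraries of the same experiment with control siRNA and the control vector (NC_Vec) entered the fit to add to the estimate of spread, and their levels are given beside the others. The labels name neither the promoter of the lentiviral vector nor a clone. Nothing in them states that the replicates were separate cultures. The p-values thus reflect the spread among these libraries alone, which may be technical.

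STAT3 is a transcription factor that is phosphorylated by JAK kinases below cytokine receptors, moves to the nucleus and binds enhancers and promoters. HMGN5 belongs to the high mobility group N proteins, which bind nucleosomes through a short positively charged domain. It carries a long acidic tail and is known to counteract the compaction of chromatin by linker histone H1. Changes in its amount are therefore studied as changes in chromatin access rather than as the action of a factor with its own DNA motif. The design asked whether supplying HMGN5 alters the transcriptome that STAT3 depletion leaves.

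Each library held 22690697 to 22862152 estimated reads over 175775 Ensembl transcripts, and 84163 to 86087 transcripts had at least 1 read. A count of 3 reads equalled 0.131 to 0.134 CPM (reads per 1000000, scaled between libraries). Transcripts under 300 bases took 1.21% to 1.3% of the reads. The deposited tables give transcript IDs without gene names, so the levels of HMGN5, STAT3 and the markers of the cell line were not checked, no gene is named, and 2 rising and 2 falling transcripts stand for the extremes. The program behind the tables divides a read among all the transcripts it could come from, so transcripts of 1 gene can trade reads.

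The siSTAT3_HMGN5 and siSTAT3_Vec libraries lay apart along the first principal component of the 5000 most variable transcripts, which held 22.7% of their variance. The siSTAT3_Vec libraries lay at -96.4, -71.8 and -94.5 on it and the siSTAT3_HMGN5 libraries at 102, 52.6 and 108. The second component held 20.7% and spread the replicates within both groups, from -131 to 104 in siSTAT3_Vec and from -98.5 to 58.8 in siSTAT3_HMGN5. The component that separated the groups thus held little more variance than the one that spread the replicates. Across the 15474 transcripts that averaged 10 CPM or more, log2(CPM + 1) correlated at r = 0.901 to 0.919 within siSTAT3_Vec, at 0.905 to 0.913 within siSTAT3_HMGN5 and at 0.866 to 0.882 between them. These correlations are across transcripts of libraries with shared annotation and like depth.

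**Figure D1:**
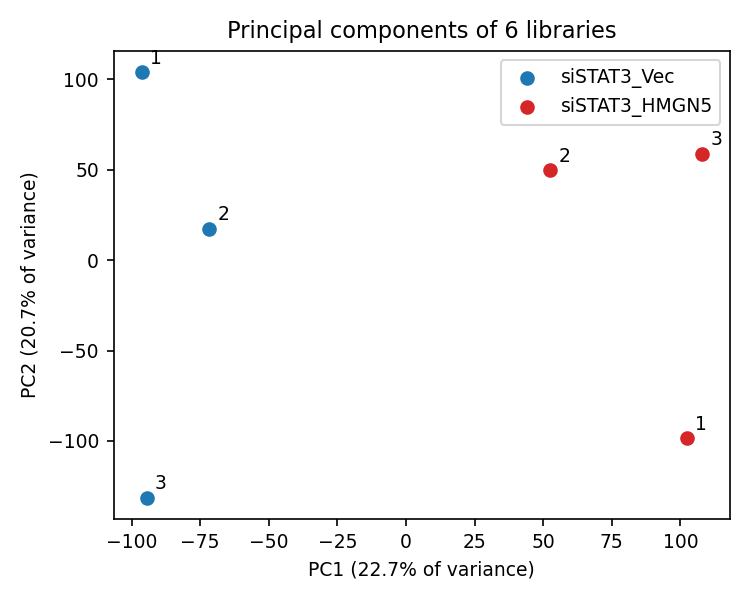
Position of each of the 6 libraries on the first 2 principal components of log2 CPM over the 5000 most variable transcripts, with replicate numbers beside the points. The groups lie on opposite sides of the first component (22.7% of variance), and the second (20.7%) spreads the replicates of both.

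The transcript with the largest rise was ENST00000430960.5, 578 bases long. It had 0 estimated reads in each of the 3 siSTAT3_Vec libraries and in each of the 3 NC_Vec libraries. In siSTAT3_HMGN5 it had 2926, 2602 and 2917 estimated reads, or 131, 114 and 128 CPM. Every library with ectopic HMGN5 was high, no other library of the experiment had a read of it, and the groups did not overlap, as was the case for 25.4% of all transcripts tested. The mean of 124 ± 8.83 CPM (SD, n = 3) was at least 938-fold higher than the level that 3 reads in 1 siSTAT3_Vec library would give (edgeR quasi-likelihood test, adjusted p = 0.000803). The transcript passed the low-count filter only through the siSTAT3_HMGN5 libraries and was named for the size of its rise. The p-value is thus no separate support for that rise.

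ENST00000373250.7, of 572 bases, rose to a like level. It had 0 reads in all 3 siSTAT3_Vec libraries and 103, 114 and 133 CPM in siSTAT3_HMGN5, a mean of 117 ± 15.2 CPM (SD, n = 3). This was at least 883-fold higher by the same floor of 3 reads per library (adjusted p = 0.00683). This transcript too needed the siSTAT3_HMGN5 libraries to pass the filter and was named for its rise, so the same limit holds. In NC_Vec it stood at 0.688, 0 and 0.71 CPM, so the libraries with HMGN5 were far above both other groups. The calls of both rising transcripts ended with the replicate number in the fit as a block (adjusted p = 0.0593 for ENST00000430960.5 and 0.067 for ENST00000373250.7). Whether their reads are shared with other transcripts of the same gene or with the lentiviral insert was not tested.

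ENST00000328221.5, of 844 bases, fell. Its level was 85.4, 81.4 and 81 CPM in siSTAT3_Vec and 5.76, 7.24 and 4.38 CPM in siSTAT3_HMGN5. The means of 82.6 ± 2.43 and 5.79 ± 1.43 CPM (SD, n = 3 each) differed 14.3-fold. The log2 fold change was -3.83 ± 0.21 (SE, 95% interval -4.33 to -3.34, adjusted p = 0.000437). The NC_Vec libraries stood at 6.84, 9.5 and 7.05 CPM, low like those with HMGN5, and only the 3 siSTAT3_Vec libraries of the experiment were high. In the same fit the log2 fold change of siSTAT3_Vec over NC_Vec was 3.40 ± 0.21 (SE, adjusted p = 6.46e-05), and that of siSTAT3_HMGN5 over NC_Vec was -0.43 (adjusted p = 0.169). Of all transcripts tested, 14.3% were called between siSTAT3_Vec and NC_Vec. These comparisons share libraries, so their values are given side by side and do not support each other.

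ENST00000396832.5, of 2791 bases, was the other extreme of the falls. It had 52.1, 38.5 and 9.05 CPM in siSTAT3_Vec and 0 reads in all 3 siSTAT3_HMGN5 libraries. The groups did not overlap, but the siSTAT3_Vec replicates differed widely among themselves, with a mean of 33.2 ± 22 CPM (SD, n = 3). This mean was at least 248-fold higher than the level of 3 reads in a siSTAT3_HMGN5 library (adjusted p = 0.0118). NC_Vec had 29.4, 27.7 and 57.3 CPM. The call ended with limma-voom (adjusted p = 0.629), in a fit of the 6 compared libraries alone (0.0507) and with the replicate block (0.0962).

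**Figure D2:**
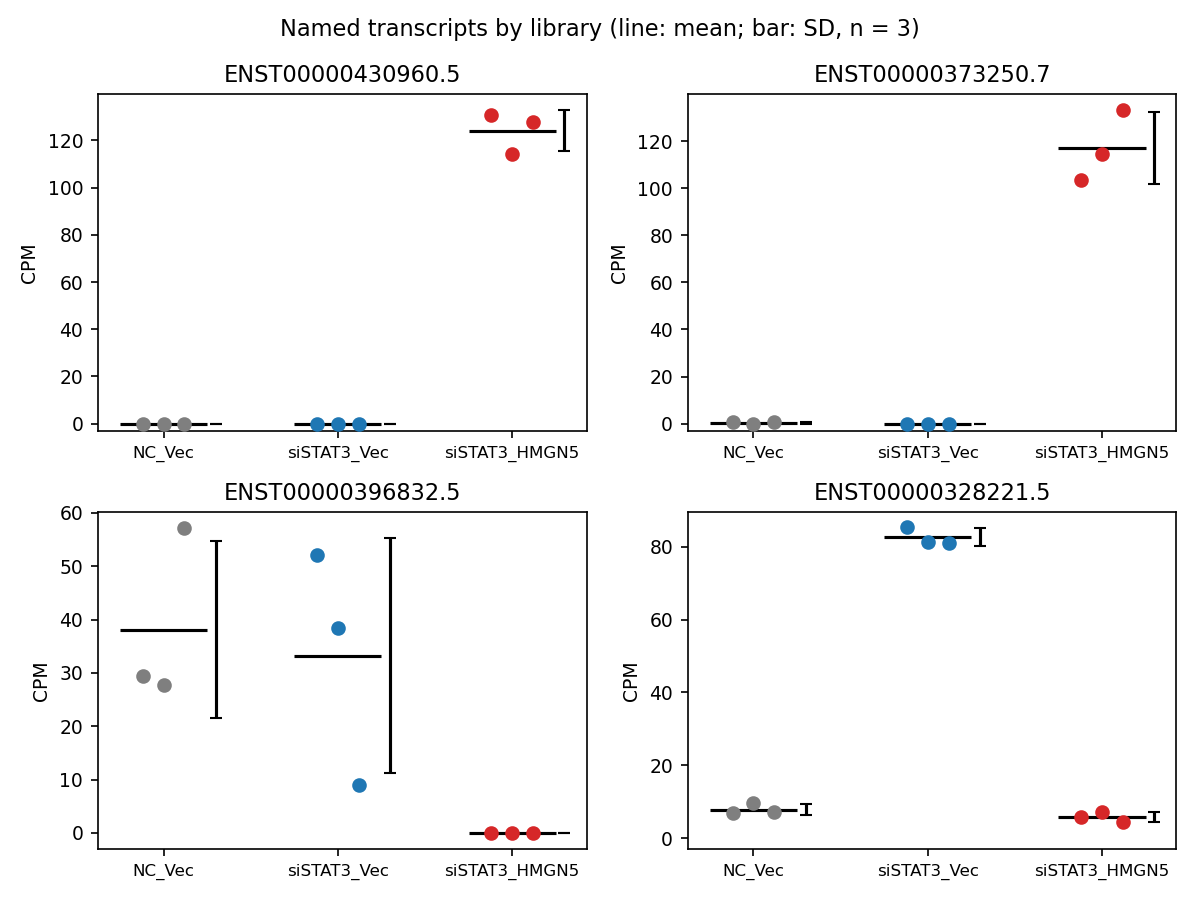
CPM of the 4 named transcripts in each library of the lentiviral experiment, with group means (lines) and SD (bars, n = 3). The rising transcripts have reads at a high level only in the 3 siSTAT3_HMGN5 libraries, ENST00000328221.5 is high only in the 3 siSTAT3_Vec libraries, and ENST00000396832.5 varies between 9.05 and 57.3 CPM where it has reads.

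Beyond these extremes, many transcripts differed slightly between siSTAT3_HMGN5 and siSTAT3_Vec. Of 69768 transcripts tested, 3.77% passed an adjusted p of 0.05: 1062 rose (1.52%) and 1569 fell (2.25%). The median called rise was 1.44-fold, with the middle of the distribution from 1.31-fold to 1.68-fold (quartiles). The median called fall was 1.68-fold, with quartiles of 1.46-fold and 2.23-fold. At an adjusted p under 0.01, 285 rose and 573 fell. The 140 transcripts between adjusted p of 0.045 and 0.05, just inside the threshold, had a median absolute log2 fold change of 0.51, and the 203 just outside it, up to 0.055, had 0.61 at a lower level (median 13.8 against 21.3 CPM). The number of calls rested on all 6 libraries: it was 1381, 1190 or 1400 without siSTAT3_Vec replicate 1, 2 or 3, and 1668, 1506 or 1338 without siSTAT3_HMGN5 replicate 1, 2 or 3. DESeq2 called 8041 transcripts, and the replicate block left 1156.

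The balance of rises and falls moved with the level of the transcript. Under a mean of 10 CPM, 163 transcripts rose and 590 fell, so 21.6% of the calls were rises. From 10 to 30 CPM 266 rose and 408 fell (39.5% rises). At 30 CPM and over 633 rose and 571 fell (52.6% rises). Rises were a smaller share of the calls under 10 CPM than at 30 CPM and over with each alternative that was tried. With a filter at a mean of 10 CPM over all 9 libraries the shares were 5.29% and 52.2%. That alternative cannot compare these classes. Transcripts under 10 CPM in the 6 compared libraries passed that filter mainly through NC_Vec. The slight excess of rises at 30 CPM and over did not hold throughout: rises were 45.9% of calls there without a low-count filter, 44% with the replicate block, 49.3% without NC_Vec replicate 3 and 42.6% to 48.7% without any 1 of the 6 compared libraries. The median log2 fold change of all tested transcripts was -0.01, at 10 CPM and over 0.03, and under 10 CPM -0.03. The siSTAT3_HMGN5 libraries had 84163, 85281 and 85079 transcripts with a read and the siSTAT3_Vec libraries 86087, 85963 and 85467. The part of this difference in the balance of calls was not tested.

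**Figure D3:**
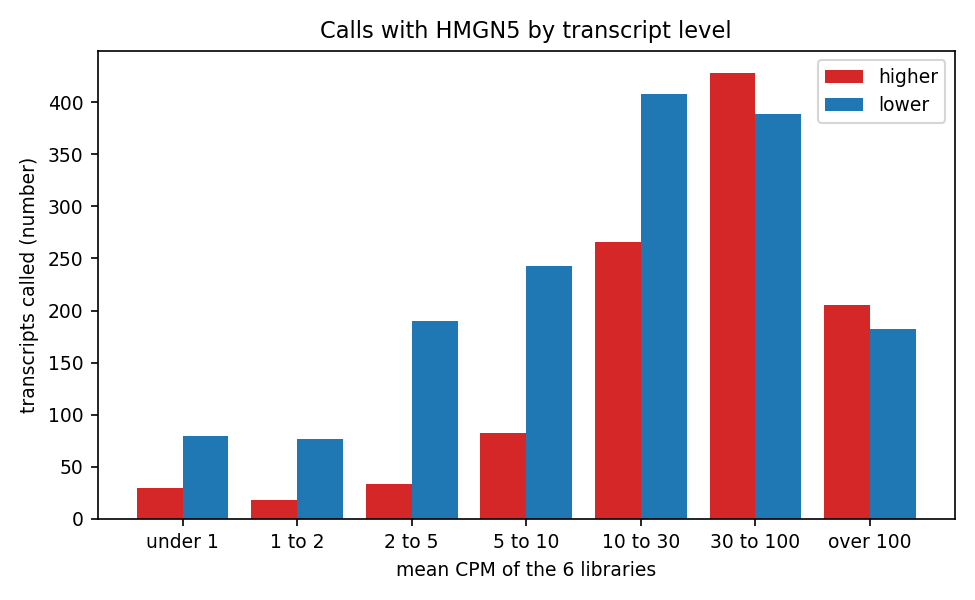
Number of transcripts called higher (red) and lower (blue) with HMGN5, by mean CPM over the 6 libraries. Falls outnumber rises in each class up to 30 CPM, and from 30 to 100 CPM there are 428 rises and 389 falls.

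**Figure D4:**
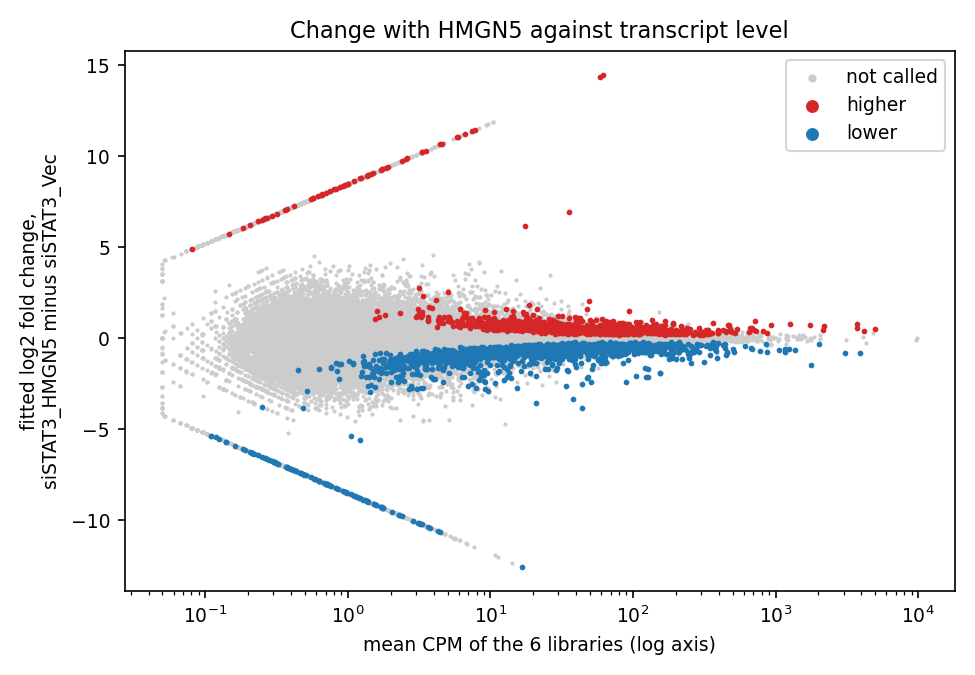
Fitted log2 fold change of siSTAT3_HMGN5 over siSTAT3_Vec against mean CPM (log axis) for the 69768 transcripts tested, with calls in red (higher) and blue (lower). Most calls lie within a narrow band around 0, and the straight outer lines are transcripts with 0 reads in 1 of the groups, whose fitted fold depends on the prior count.

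Among the larger changes falls outnumbered rises. In all, 140 rises and 492 falls were at least 2-fold, and 66 rises and 166 falls at least 4-fold. These include 59 rises with 0 reads in all siSTAT3_Vec libraries and 104 falls with 0 reads in all siSTAT3_HMGN5 libraries, for which the fitted fold depends on the prior count. At 10 CPM and over, 41 rises and 121 falls reached 2-fold. Of 1622 transcripts over 100 CPM, 23.9% were called: 205 rose by a median of 1.31-fold and 182 fell by a median of 1.44-fold. The largest rise among those with reads in both groups was 2.04-fold and the largest fall 4.43-fold. Of the 48 transcripts over 1000 CPM, 35.4% were called: 8 rose by a median of 1.54-fold and 9 fell by a median of 1.56-fold, and of these 4 and 8 changed by at least 1.5-fold.

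At the same minimum level the share of transcripts called was larger in the longer classes. At 10 CPM and over, 6.69% of transcripts of 300 to 600 bases were called, 10.9% of those of 1000 to 2000 bases and 16.6% of those of 4000 bases and over, against 12.1% of all at that level. In the longest class 377 rose and 331 fell, and from 1000 to 2000 bases 119 rose and 173 fell. The median level was 19.1, 23.8 and 31.8 CPM in these 3 classes in the same order, and its part in the shares called was not tested.

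The called transcripts held a sizeable share of each library. Those called higher took 7.97%, 8.04% and 8.05% of the reads in the siSTAT3_Vec libraries and 11.4%, 11% and 11.5% in the siSTAT3_HMGN5 libraries. Those called lower took 10.6%, 10.4% and 10.3% in siSTAT3_Vec and 6.6%, 6.73% and 6.55% in siSTAT3_HMGN5. Replicates lay close together and the groups far apart, as the choice of the transcripts by this contrast ensures. In NC_Vec the first set took 7.04% to 7.17% of the reads and the second 11.4% to 11.5%. By summed reads, the siSTAT3_Vec libraries thus lay between NC_Vec and siSTAT3_HMGN5 on both sets, nearer to NC_Vec. Abundant transcripts weigh most in these sums, and single transcripts can lie otherwise: ENST00000328221.5 was high only in siSTAT3_Vec.

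**Figure D5:**
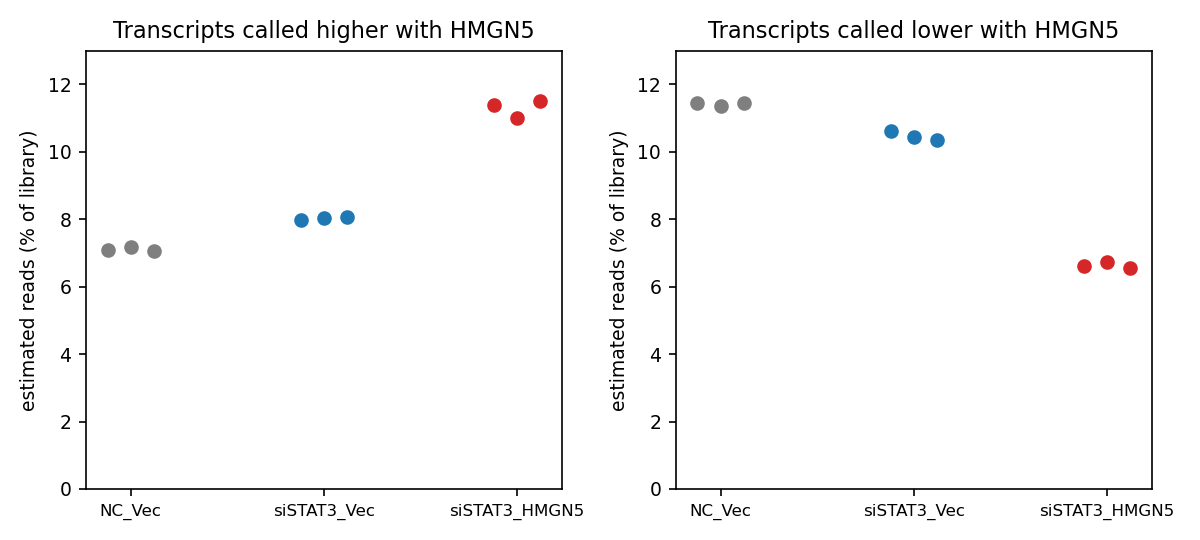
Percent of each library's estimated reads on the 1062 transcripts called higher (left) and the 1569 called lower (right) with HMGN5, by group and library. The sets were chosen by the difference between siSTAT3_HMGN5 and siSTAT3_Vec, and the NC_Vec libraries lie on the far side of siSTAT3_Vec in both panels.

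For most of the abundant transcripts that were not called, the data bound the change. Of 5323 uncalled transcripts that averaged 30 CPM or more, 92.6% had a 95% interval of the fold change inside 2-fold in either direction, and 76% inside 1.5-fold. At 100 CPM and over the shares were 97.2% and 90.2% of 1235. At 5 CPM and over they fell to 75% and 45.2% of 21667, so at low levels changes of 1.5-fold were often not detectable at this depth. These intervals are per transcript and not adjusted for their number.

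Transcripts that appeared to have reads of their own were also counted apart. For 479 tested transcripts each of the 9 libraries gave an estimate no more than 0.0015 away from a whole number. These were treated as unshared, a class defined after the data were seen. Of them 17 rose and 48 fell, or 13.6% against 3.77% of all. At 10 CPM and over, 15 rose and 19 fell among 154 (22.1%, against 12% of the other 15320 at that level). The median level was 31.3 CPM among the 154 and 25 CPM among the others, and its part in these shares was not tested. In a fit of these 479 alone, with the scaling between libraries and the adjustment both taken over them alone, 82 rose and 93 fell. None of the 4 named transcripts belongs to this class. The class cannot show whether divided reads shaped their calls or those of other transcripts.

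The siRNA experiment of the series, which shares no library with this comparison, used siRNA against HMGN5 itself. Its values were therefore set beside those of siSTAT3_HMGN5. ENST00000373250.7 stood at 4.07, 3.13, 4.59 and 5.24 CPM in the 4 control libraries (NC) and at 0.604 and 0.412 CPM in the 2 with HMGN5 siRNA (siHMGN5). The log2 fold change of -3.05 ± 1.25 (SE) did not pass the edgeR test (adjusted p = 0.297). The 2 libraries with STAT3 siRNA had 0 and 0.749 CPM of it (log2 fold change -3.49 ± 1.29, SE, adjusted p = 0.233). In NC_Vec, with control siRNA, ENST00000373250.7 stood at 0.688, 0 and 0.71 CPM, but those libraries belong to the other experiment and were scaled apart. The reason for these low levels was not tested. ENST00000430960.5 was too low to be tested there, with 1.11 CPM in NC replicate 2 and 0 reads in the other 7 libraries. ENST00000328221.5 was at most 1.7 CPM in every library of that experiment. Its log2 fold change with STAT3 siRNA over NC was 0.72 ± 2.42 (SE, adjusted p = 0.946), so its rise in siSTAT3_Vec was not seen there. ENST00000396832.5 had 18.8 and 21.9 CPM in NC replicates 1 and 2 but 0 reads in NC replicates 3 and 4. It had 36.7 and 23.3 CPM with STAT3 siRNA (adjusted p = 0.835 against NC) and 8.25 and 0 CPM in siHMGN5 (adjusted p = 0.894).

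The wider sets of transcripts called higher and lower in siSTAT3_HMGN5, here the raised and lowered sets, were then followed in the libraries with HMGN5 siRNA. In siHMGN5 against NC 3.39% of 74346 transcripts were called. Of the raised set, 1044 transcripts were tested in both experiments, and 98 of these were lower and 47 higher in siHMGN5. That is 9.39% and 4.5% of this set and 5.49% and 6.95% of the siHMGN5 calls in each direction. Of the lowered set, 1535 were tested in both, and 153 of these were lower and 59 higher in siHMGN5 (9.97% and 3.84% of the set, 8.57% and 8.73% of the siHMGN5 calls). Among all 63969 transcripts tested in both, 2.79% were lower and 1.06% higher. At 10 CPM and over the background came to 8.4% and 2.74%, with 10.5% and 4.68% of the raised set and 13.8% and 4.82% of the lowered set. In both sets, lower calls outnumbered higher calls in siHMGN5, as they did among all transcripts. The median log2 fold change in siHMGN5 was -0.12 for the raised set, -0.06 for the lowered set and -0.01 for all.

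The NC libraries of the siRNA experiment were also taken as 2 pairs, a split made after the data were seen, and the picture changed with the pair. Against NC replicates 1 and 2 alone (5.6% of transcripts called), 159 of the raised set were lower and 114 higher in siHMGN5 (15.2% and 10.9%), and 312 of the lowered set were lower and 104 higher (20.3% and 6.78%). Of all transcripts tested in both experiments, 4.25% were lower and 2.11% higher there. Against NC replicates 3 and 4 alone (10.3% called), 316 of the raised set were lower and 125 higher (30.3% and 12%), and 320 of the lowered set were lower and 343 higher (20.8% and 22.3%), against 6.74% and 4.94% of all. The median log2 fold change in siHMGN5 was -0.23 for the raised set and 0.15 for the lowered set against the second pair, and -0.02 and -0.18 against the first. The sign of the median was opposite to that of the change in siSTAT3_HMGN5 in both sets only against NC replicates 3 and 4. There the medians of the lowered set and of all transcripts (0.01) were both lower at 10 CPM and over. At 10 CPM and over, against that pair, 274 of the lowered set were lower and 246 higher (28.1% and 25.2%), and 302 of the raised set were lower and 110 higher (33.7% and 12.3%), where 20% of all were lower and 10.6% higher. The medians were then 0.02 for the lowered set, -0.24 for the raised set and -0.15 for all. Against NC replicates 1 and 2 at that level they were -0.20, -0.03 and -0.09 in the same order.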

How the data were processed

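Poly(A) RNA libraries of MDA-MB-231 cells were grouped by sample title. The authors deposited 1 table per library with estimated read counts (expected counts that need not be whole) and TPM values per Ensembl transcript, per the file headers. Salmon 1.4.0 is named, among other tools, in the submitters' processing notes. The transcript release and the options used are not given in the sources used here. Deposited TPM values, lengths and effective lengths were read from the same tables. TPM entered no result.

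Estimated counts were rounded and the 9 lentiviral libraries fitted with edgeR 4.0.16 (R 4.3.3; TMM, filterByExpr, glmQLFit and glmQLFTest on group means), with Benjamini-Hochberg adjustment over all transcripts tested and a threshold of 0.05. The SE was derived from the log2 fold change and its F statistic. The 8 siRNA libraries had a fit of their own, repeated with the NC pairs as separate groups, a split made after the data were seen. Named transcripts were the 2 largest rises and 2 largest falls by fitted fold among calls with a mean of at least 5 CPM and no overlap between groups. DESeq2 1.42.0, limma-voom (limma 3.58.1), RLE scaling, other filters, fewer groups, effective length offsets, the replicate block and each library left out were alternatives. The edgeR fit was tested on simulated data. A planned fit per gene and counts over gene lists were not run, because no table at hand pairs transcripts with genes. The transcripts, lists and comparison were chosen with earlier results of these data known.

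Intervals cover counting error and replicate spread only. Replicates differed by more than counting noise (mean chi-square of 2.32 to 7.17 per transcript over 336 transcripts with unshared reads), so none was treated as a repeat deposit of another. This does not show that they are separate cultures.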

Additional observations from a re-analysis of the deposited data

How the results depend on the processing

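Of 2631 calls (1062 higher, 1569 lower), DESeq2 gave 8041 (3630 and 4411), no low-count filter 1627 (585 and 1042) and the replicate block 1156 (409 and 747). With a mean of at least 10 CPM required, 1606 transcripts were higher, with fewer tested. Among transcripts with unshared reads alone, an alternative with its own scaling and added after seeing the data, there were 175 calls (82 and 93). Without any 1 of the 9 libraries, calls numbered 1190 to 2472 (402 to 1088 higher, 756 to 1384 lower). Rises were 40.4% of all calls and 30% without siSTAT3_HMGN5 replicate 3. RLE scaling, limma-voom, effective length offsets, the compared groups alone and transcripts with a read in all 6 libraries, the last added later, kept the total within 1.5 times. The cause of these shifts was not tested. The 4 named transcripts kept their direction in every alternative that tested them. That of ENST00000328221.5 passed the threshold in 18 of 18. Replicate numbers did not pair the libraries: same-numbered libraries of the 2 groups deviated together at r = -0.07, -0.05 and -0.02, and no library correlated best with its own number. The low levels limit detection: 3 reads are 0.131 to 0.134 CPM. Fits per gene, gene lists and the most abundant transcript of each gene were not run.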

Other observations

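Most transcripts with 0 estimated reads in all libraries of 1 group were not called. These classes were chosen by 0 reads in a compared group, so the direction of any call in them was fixed in advance. Their shares called stand beside 3.77% of all transcripts tested, but the choice makes the shares unlike and no conclusion is drawn. Of 1363 with 0 reads in the 3 siSTAT3_HMGN5 libraries, 104 (7.63%) were called lower. Of 973 with 0 reads in the 3 siSTAT3_Vec libraries, 59 (6.06%) were called higher. At a mean of at least 5 CPM over the 6 libraries there were 13 and 18 such transcripts, of which 1 and 7 were called. ENST00000430960.5 and ENST00000373250.7 are among the 7, and ENST00000396832.5 is the 1.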
